A study of Homo sapiens with 3 samples.

Results

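The genes described here fold proteins in the endoplasmic reticulum (ER) or remove those that fail to fold: 36 genes for ER chaperones, disulfide isomerases, stress sensors and ER-associated degradation, taken by name from a list drawn up for their function. Of the 36, 34 had a probe set annotated to that gene alone, and all 34 were among the 12307 genes bright enough to compare, with a mean signal of at least 42.0 over the arrays. Signals are the deposited linear MAS5 values of a gene's brightest probe set. PDIA5, a disulfide isomerase, and SYVN1, the ubiquitin ligase of the main degradation complex, were present only on probe sets annotated to a microRNA gene as well, so no value is given for them. Coordinates are those of the RefSeq annotation of GRCh38.p14.

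RNA came from IMR-90 cells, a strain of human fetal lung fibroblasts, 24 h after siRNA transfection. The first group received SETD8 siRNA 1 (SETD8-1 in the labels) and the second SETD8 siRNA 2 (SETD8-2), both directed against SETD8, which is named KMT5A in current annotation and encodes the methyltransferase for a single methyl group on histone H4 lysine 20. Both are called siRNA 1 and siRNA 2 below, and a pair of log2 fold changes is for siRNA 1 and then siRNA 2, each over the control. The control group received the siRNA labelled GL3. The labels give the same medium, transfection reagent and time for all groups. Each group is 1 Affymetrix array, so no value has a replicate error, no p-value is given, and both comparisons with the control rest on the same control array. The comparisons ask which genes differ after SETD8 knockdown and whether 2 siRNAs against 1 target give the same picture.

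Proteins of the secretory pathway enter the ER through the SEC61 channel and are bound there by the Hsp70 chaperone BiP, by lectin chaperones that read N-glycans, and by protein disulfide isomerases. Chains that stay unfolded are drawn back to the cytosol and degraded. Load on this system is sensed by IRE1 (ERN1), PERK (EIF2AK3) and ATF6, which together raise chaperone and degradation genes in the unfolded protein response. Fibroblasts secrete much collagen and depend heavily on this machinery.

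KMT5A had a signal of 431.4 with SETD8 siRNA 1 and 584.1 with SETD8 siRNA 2, which are 45.9% and 62.2% of the 938.9 with the control siRNA, and all 4 of its probe sets were lower with both. The size depends on the probe set: the log2 fold changes of -1.12 and -0.68 became -0.64 and -0.39 with probe sets averaged, and -0.48 and -0.44 without shared ones. All 13 fibroblast markers were above the signal limit. Single ones differed, DCN by -1.37 and 0.19, S100A4 by 0.87 and 1.68, LUM by -0.36 and 0.79, FAP by 0.35 and -0.61 and THY1 by -0.58 and 0.30 on the log2 scale, in a list with a summed signal of 217541.1 with SETD8 siRNA 1, 229243.0 with SETD8 siRNA 2 and 216939.1 with the control siRNA. Of 9 epithelial markers 4 were above it (summed signal 3296.0, 6633.0 and 3443.5 in the same order of arrays), and KRT18 made up most of that sum (2962.8, 6010.1 and 2987.4). Of 7 endothelial markers 3 were (1605.5, 2220.6 and 1390.2), and of 7 leukocyte markers, 5 of them with a probe set, 1 was (170.0, 188.3 and 101.8). The others with a probe set, such as CDH1, CDH5 and PTPRC, were under it. Past 2-fold with 1 siRNA were EPCAM (-1.68 and 0.31), KRT8 (0.25 and 1.14), KRT18 (-0.01 and 1.01), PECAM1 (1.46 and 0.11) and VWF (1.13 and 0.44). Except for KRT18 these were dim, with signals of at most 233.7. Cell division differed far more: on both SETD8 arrays all 20 listed genes of G2 and mitosis lay below the control by 2-fold or more, with median log2 fold changes of -2.94 and -2.66. In a culture, a change in the RNA of each cell and a change in the mixture of cells cannot be told apart, and the part of these differences in the values below was not tested.

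Few of the ER folding and degradation genes were 2-fold apart from the control, and those that were had a higher signal. At least 2-fold higher with both SETD8 siRNAs were 2 of the 34, DNAJB9 and ERN1 (5.88%, against 1.5% of all genes), and none was lower by 2-fold on both (3.23% of all genes). With siRNA 1, 3 were at least 2-fold higher, with EDEM1 added (8.82%, against 5.48% of all genes), and none was lower (7.75% of all genes). With siRNA 2 it was 2 higher (5.88%, against 4.46%) and again none lower (6.65%). Such differences were rarer in the highest signal quartile, which holds 25 of the 34 genes. Of its 3077 genes, 112 were higher and 92 lower with siRNA 1, 73 and 66 with siRNA 2, and 32 and 29 with both. Of the 25, 1 was higher in each of these comparisons and none was lower.

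Smaller differences set the 2 siRNAs apart. With siRNA 1, 31 of the 34 genes had a higher signal than in the control at any size (91.2%), where 48.4% of all genes and 56.8% of the genes in the highest signal quartile did. With siRNA 2 it was 20 of 34 (58.8%), against 48.9% of all genes and 57.3% of the highest quartile. The median log2 fold change of the 34 genes was 0.35 (SD over genes 0.40) with siRNA 1 and 0.07 (SD 0.36) with siRNA 2, beside -0.02 and -0.01 over all genes and 0.05 and 0.06 in the highest quartile. Set directly against each other, siRNA 2 gave a lower signal than siRNA 1 for 28 of the 34 (82.4%, against 50.2% of all genes and 51.8% of the highest quartile), with a median difference of -0.21.

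At the lower threshold of 1.5-fold the siRNAs named different numbers of genes. With siRNA 1, 9 genes passed it upward (26.5%, against 12.7% of all genes): HYOU1, DNAJB9, SDF2L1, PDIA4, FKBP14, MANF, ERN1, EDEM1 and EDEM3. With siRNA 2 only DNAJB9, ERN1 and EDEM3 did (8.82%, against 11.6%), and the same 3 were past it with both (8.82%, against 4.59%). No gene was 1.5-fold lower with siRNA 1 (16.4% of all genes), with siRNA 2 (14.7%) or with both (7.37%). These shares are over genes of every signal, and the highest signal quartile was not counted apart at 1.5-fold. Between the siRNAs, 6 genes were at least 1.5-fold lower with siRNA 2 than with siRNA 1 (17.6%, against 13.5% of all genes), namely HYOU1, SDF2L1, PDIA4, ERO1A, MANF and EDEM1, and none was higher (14.3%). At 2-fold, that difference was met by EDEM1 alone (2.94%, against 6.38% of all genes), and no gene was 2-fold higher with siRNA 2 (6.18%).

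As a measure of how far single genes scatter, the arrays of siRNA 2 and siRNA 1 were compared. In the highest quartile of signal, which holds 25 of the 34 genes, 95% of genes differed between them by less than 1.14 on the log2 scale, and in the third quartile, with 6 of them, by less than 1.25. These limits, here called the array spread, contain any true difference between the siRNAs as well as noise. DNAJB9 with siRNA 1 was the only value among the 34 genes to pass the array spread against the control, and no gene passed it between the siRNAs. All other differences from the control were within the array spread. The array spread comes from the difference between the siRNAs, so by definition 95% of the genes in a quartile stay within it there. That none of the 34 passed it between the siRNAs is therefore not a result about these genes. The share of all genes passing it against the control is not given, so the 1 value cannot be set beside a share. Over all genes, the 5th to 95th percentiles against the control were -1.26 to 1.06 with siRNA 1 and -1.17 to 0.94 with siRNA 2. The separate probe sets of a gene, which share the RNA and the array, are given as a further description.

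**Figure D1:**
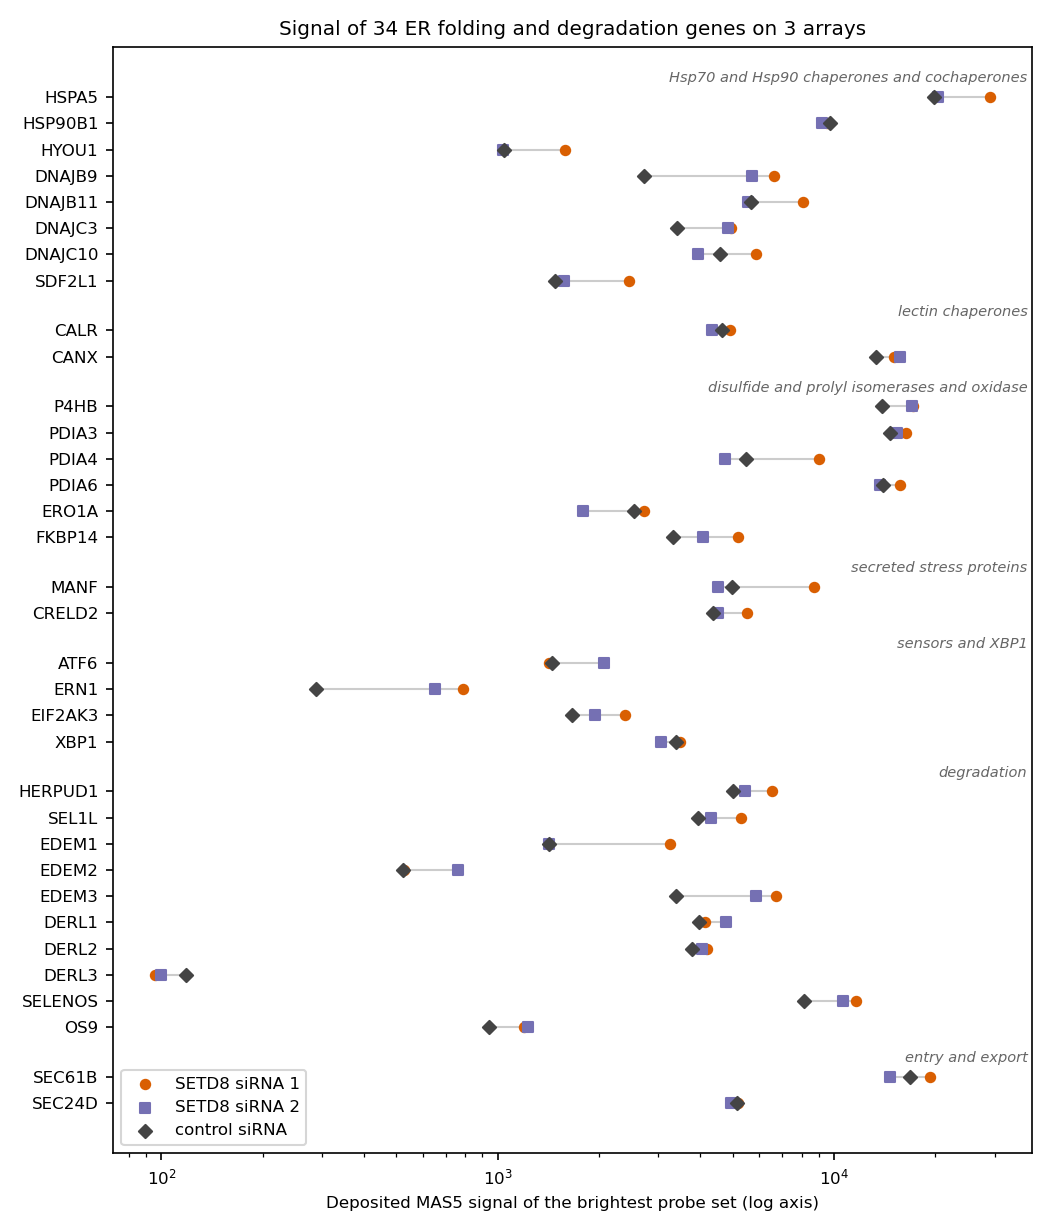
Deposited MAS5 signal of the brightest probe set (horizontal log axis) for each of the 34 genes, grouped by role, with 1 point per array: siRNA 1 as circles, siRNA 2 as squares, control siRNA as diamonds. Both SETD8 siRNA arrays lie at least 1.5-fold above the control for DNAJB9, ERN1 and EDEM3. EDEM1, MANF, PDIA4, SDF2L1, HYOU1 and FKBP14 do so with siRNA 1 only, and of all these only DNAJB9 with siRNA 1 passed the array spread. Signals of different genes depend on their probes and are not to be ranked.

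Many of these genes carry known control sequences of the unfolded protein response in their promoters, so the windows from 250 bases before to 50 after each annotated start (RefSeq, GRCh38.p14) were searched on both strands, 35116 windows in all. CANX has 4 such windows, PDIA4, PDIA6 and XBP1 have 2 each, and the other listed genes 1. The ER stress element, CCAAT and CCACG with 9 bases between them, was found before 7 of the 31 listed genes in the promoter table (22.6%) and before 25 of 27305 genes in all (0.0916%). Its second form, ATTGG and CCACG with 1 base between, was found for 3 of the 31 (9.68%), against 0.0696% of all genes, and the core of the unfolded protein response element, TGACGTGG, for 2 of the 31 (6.45%), against 0.927%. PDIA3, FKBP14, DERL1, DERL3 and SEC24D were not searched. The following stretches come from genes that hold an element and were chosen with their fold changes known. CALR, CANX and CRELD2 also hold one and are not shown. Each element is in capitals with 15 bases on either side:
HSPA5, chr9:125241376-125241424, minus strand: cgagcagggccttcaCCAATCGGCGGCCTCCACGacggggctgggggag
XBP1, chr22:28800588-28800636, minus strand: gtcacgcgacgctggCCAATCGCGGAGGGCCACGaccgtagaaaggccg
HSP90B1, chr12:103930201-103930249, plus strand: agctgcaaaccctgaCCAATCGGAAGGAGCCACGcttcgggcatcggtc
PDIA6, chr2:10812838-10812886, minus strand: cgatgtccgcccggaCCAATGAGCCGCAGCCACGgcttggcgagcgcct
HERPUD1, chr16:56932010-56932050, plus strand: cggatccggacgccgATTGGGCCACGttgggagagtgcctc
HYOU1, chr11:119057365-119057405, minus strand: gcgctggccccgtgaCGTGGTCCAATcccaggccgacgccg
SDF2L1, chr22:21642099-21642139, plus strand: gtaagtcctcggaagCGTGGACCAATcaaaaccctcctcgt

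The element lay 66 bases before the start of HSPA5, 52 before that of XBP1 and 188 before that of SDF2L1, where it reads in the reverse direction, as it does in HYOU1. HSP90B1 and HYOU1 each held a second match closer to the start, and the TGACGTGG of HYOU1 overlaps its distal element. The 10 genes with either form had median log2 fold changes of 0.26 with siRNA 1 (-0.02 to 0.73) and 0.01 with siRNA 2 (-0.15 to 0.24). The 19 searched and measured genes with neither form had 0.51 (-0.03 to 1.45) and 0.23 (-0.50 to 1.18). Over all genes the medians were -0.02 and -0.01. DNAJB9, ERN1 and EDEM3, the genes at least 1.5-fold higher with both siRNAs (4.59% of all genes were), were all in the second group. At least 1.5-fold higher with siRNA 1 were 2 of the 10 (HYOU1 and SDF2L1) and 6 of the 19, against 12.7% of all genes. The 6 also include EDEM1, MANF and PDIA4, while FKBP14 was not searched. Whether the element goes with the size of the change was not tested. A match is a description of the letters in this window and says nothing of binding.

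The 150 bases before the start of DNAJB9 and ERN1 are shown for contrast with the stretches above, with any CCACG, on either strand, in capitals. It occurs 2 times for DNAJB9 and not at all for ERN1, and at least once in 23.4% of such windows over all promoters:
DNAJB9, chr7:108569724-108569873, plus strand: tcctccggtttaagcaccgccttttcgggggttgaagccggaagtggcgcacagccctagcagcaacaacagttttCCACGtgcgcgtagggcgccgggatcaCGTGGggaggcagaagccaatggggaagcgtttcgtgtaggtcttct
ERN1, chr17:64130145-64130294, minus strand: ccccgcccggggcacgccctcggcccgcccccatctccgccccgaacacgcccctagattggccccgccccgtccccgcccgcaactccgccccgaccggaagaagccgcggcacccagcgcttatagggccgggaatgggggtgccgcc

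**Figure D2:**
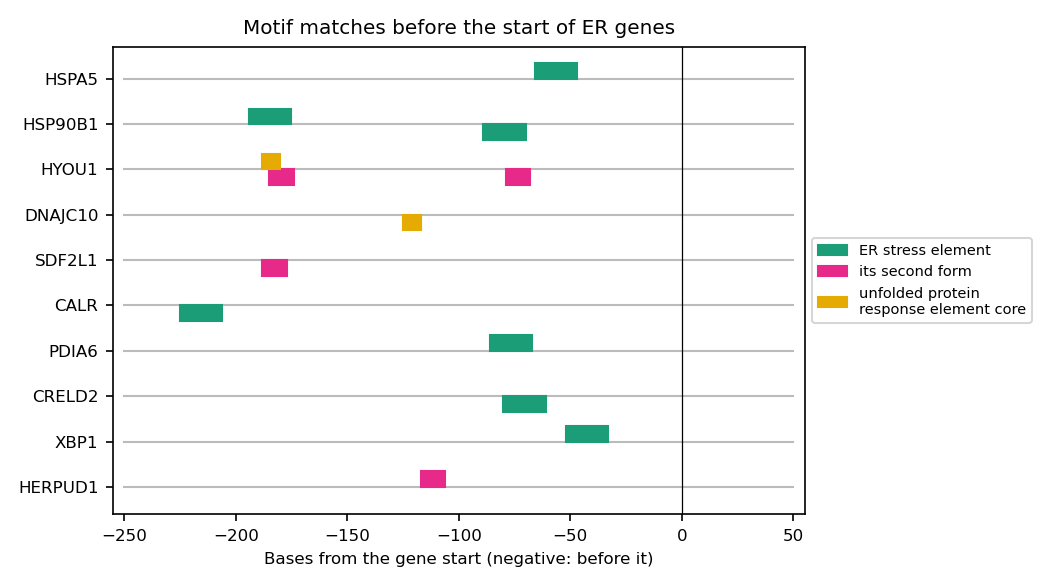
Position of motif matches relative to the gene start (horizontal axis in bases, negative before the start) for 10 genes, with matches on the gene's own strand above each line and on the other strand below it. The ER stress element and its second form lie within 225 bases before the start in all genes drawn except DNAJC10, which holds the response element core only; for PDIA6 and XBP1 the match lies in 1 of 2 windows, and CANX, with matches in 3 of 4, is not drawn.

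Among the sensors, ERN1 stood out. It encodes IRE1, the kinase and ribonuclease that splices XBP1 mRNA, and lies at chr17:64039142-64130144. Its brightest probe set gave 790.4 with siRNA 1 and 653.0 with siRNA 2, against 288.5 with the control siRNA. Both SETD8 siRNA arrays were thus above the control, 2.74-fold and 2.26-fold, or 1.45 and 1.18 on the log2 scale, which is under the array spread of 1.72 for a gene this dim. The other probe sets were higher too, at 271.7 with siRNA 1 and 156.0 with siRNA 2, against 136.1 in the control, and 82.8 with siRNA 1 and 65.4 with siRNA 2, against 46.6 in the control. Averaged over its 3 probe sets, ERN1 had a log2 fold change of 1.09 ± 0.32 with siRNA 1 and 0.62 ± 0.50 with siRNA 2 (SD over probe sets), and so missed 2-fold with the second.

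XBP1, the transcription factor whose mRNA IRE1 splices, had 3483.4 with siRNA 1 and 3056.2 with siRNA 2, against 3394.4 with the control siRNA. The log2 fold changes were 0.04 and -0.15, so neither array stood apart. Splicing of XBP1 mRNA and the activity of the sensor proteins were not measured. EIF2AK3, which encodes PERK, the kinase that dampens translation under ER stress, had 2396.9 with siRNA 1 and 1951.1 with siRNA 2, against 1660.5 in the control, or log2 fold changes of 0.53 and 0.23. ATF6, the sensor that is cut in the Golgi to release a transcription factor, had 1419.4 with siRNA 1 and 2070.7 with siRNA 2, against 1451.5 with the control siRNA. ATF6 was one of 6 genes with a higher signal with siRNA 2 than with siRNA 1, by 0.54 on the log2 scale, but its 4 probe sets were divided, 3 being higher and 1 lower than control with siRNA 2.

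DNAJB9 gave the clearest difference of the chaperone group. It encodes a J-domain partner of BiP that also holds IRE1 inactive, and lies at chr7:108569874-108574850. The signal was 6605.3 with siRNA 1 and 5698.0 with siRNA 2, against 2717.9 with the control siRNA, so both were above the control, 2.43-fold and 2.10-fold. A second probe set gave 3614.4 with siRNA 1 and 2633.2 with siRNA 2, against 1430.7 in the control, and the remaining one gave 2312.9 with siRNA 1 and 1717.8 with siRNA 2, against 850.1 in the control. The mean log2 fold change over the 3 probe sets was 1.35 ± 0.08 with siRNA 1 and 0.99 ± 0.10 with siRNA 2 (SD over probe sets). This was the tightest set of probe sets among the genes past 1.5-fold with both siRNAs, although the mean with siRNA 2 lay just under 2-fold.

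HSPA5, which encodes BiP itself, had 29117.4 with siRNA 1 and 20323.4 with siRNA 2, against 19813.4 with the control siRNA. The siRNA 1 array was 1.47-fold above the control and the siRNA 2 array 1.03-fold. The dimmer HSPA5 probe set gave 1530.6 with siRNA 1 and 1443.2 with siRNA 2, against 1188.8 in the control, or 0.36 and 0.28 on the log2 scale and so higher on both arrays. Several partners of BiP had the pattern of its bright probe set. HYOU1, the nucleotide exchange factor of BiP, had 1585.9 with siRNA 1 and 1033.5 with siRNA 2, against 1047.1 with the control siRNA. SDF2L1, which binds unfolded clients together with DNAJB11, had 2462.4 with siRNA 1 and 1573.4 with siRNA 2, against 1483.7 in the control. DNAJB11, a J-domain protein that delivers clients to BiP, had 8099.8 with siRNA 1 and 5540.8 with siRNA 2, against 5676.0 in the control. In these genes the siRNA 1 array was 1.43-fold to 1.66-fold above the control, and the siRNA 2 array lay between 0.976-fold and 1.06-fold. Each was measured by 1 probe set only.

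Other chaperones departed from this pattern. DNAJC3, a J-domain protein that also restrains PERK signalling, was higher with both siRNAs, at 4952.8 with siRNA 1 and 4851.0 with siRNA 2, against 3413.9 in the control (0.54 and 0.51), and 1 of its 4 probe sets was lower than control with siRNA 2. DNAJC10, a reductase that opens wrong disulfides before degradation, had 3952.1 with siRNA 2 and 5848.8 with siRNA 1, on either side of the 4579.9 with the control siRNA. All 4 of its probe sets above the signal limit were lower with siRNA 2 than with siRNA 1, by 0.70 ± 0.23 on the log2 scale (SD over probe sets). HSP90B1, the ER form of Hsp90, had 9552.1 with siRNA 1 and 9214.7 with siRNA 2, against 9718.8 in the control, and both of its probe sets were lower than control with both siRNAs, by 0.02 to 0.50 on the log2 scale. A further 2 HSP90B1 probe sets are shared with a microRNA gene and were left out.

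The lectin chaperones calreticulin and calnexin, which hold newly glycosylated proteins, stayed near the control. CALR had 4915.9 with siRNA 1 and 4337.0 with siRNA 2, against 4646.5 with the control siRNA. CANX had 15108.6 with siRNA 1 and 15692.2 with siRNA 2, against 13288.6 in the control, and its 4 probe sets above the limit gave 0.16 ± 0.06 and 0.23 ± 0.01 on the log2 scale (SD over probe sets). The CANX difference was thus small and alike on every probe set, whereas CALR probe sets with siRNA 1 lay on both sides of 0.

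The disulfide isomerases split into a steady and a moving part. P4HB, which is also a subunit of the collagen prolyl hydroxylase, PDIA3, the partner of both lectin chaperones, and PDIA6 had log2 fold changes of 0.16 to 0.30 with siRNA 1 and of -0.03 to 0.29 with siRNA 2. The other P4HB probe sets gave -0.07 and -0.13 with siRNA 1, and 0.05 and -0.02 with siRNA 2. PDIA4, an isomerase with several thioredoxin-like domains at chr7:149003051-149028505, had 9047.6 with siRNA 1 and 4735.7 with siRNA 2, against 5470.6 with the control siRNA. It was 1.65-fold above the control with the first and 0.866-fold with the second. Its other probe set gave 1937.9 with siRNA 1 and 1125.4 with siRNA 2, against 1372.4 in the control, and over both the signal with siRNA 2 was lower than with siRNA 1 by 0.86 ± 0.11 on the log2 scale (SD over 2 probe sets).

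ERO1A, the oxidase that recharges the isomerases, had 2729.1 with siRNA 1 and 1796.9 with siRNA 2, against 2546.2 with the control siRNA. Its probe sets disagreed with siRNA 2, where the brightest gave -0.50 and the others 0.40 and 0.32 on the log2 scale. The sign therefore turned to 0.07 when they were averaged and to 0.32 without shared probe sets. FKBP14, a prolyl isomerase that acts on collagen, had 5164.0 with siRNA 1 and 4084.5 with siRNA 2, against 3327.6 in the control. All 3 FKBP14 probe sets were higher with both siRNAs, with means of 0.60 ± 0.22 and 0.26 ± 0.19 (SD over probe sets).

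The small secreted proteins of ER stress followed the pattern of PDIA4. MANF, a growth factor-like protein held in the ER by BiP and encoded at chr3:51385291-51389397, had 8727.2 with siRNA 1 and 4506.1 with siRNA 2, against 4961.5 with the control siRNA. The first array was 1.76-fold above the control and the second at 0.908-fold, the widest gap between the siRNAs after EDEM1. CRELD2, an EGF-domain protein, had 5525.6 with siRNA 1 and 4501.8 with siRNA 2, against 4357.6 in the control, a smaller difference of the same shape. Both genes have 1 probe set.

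**Figure D3:**
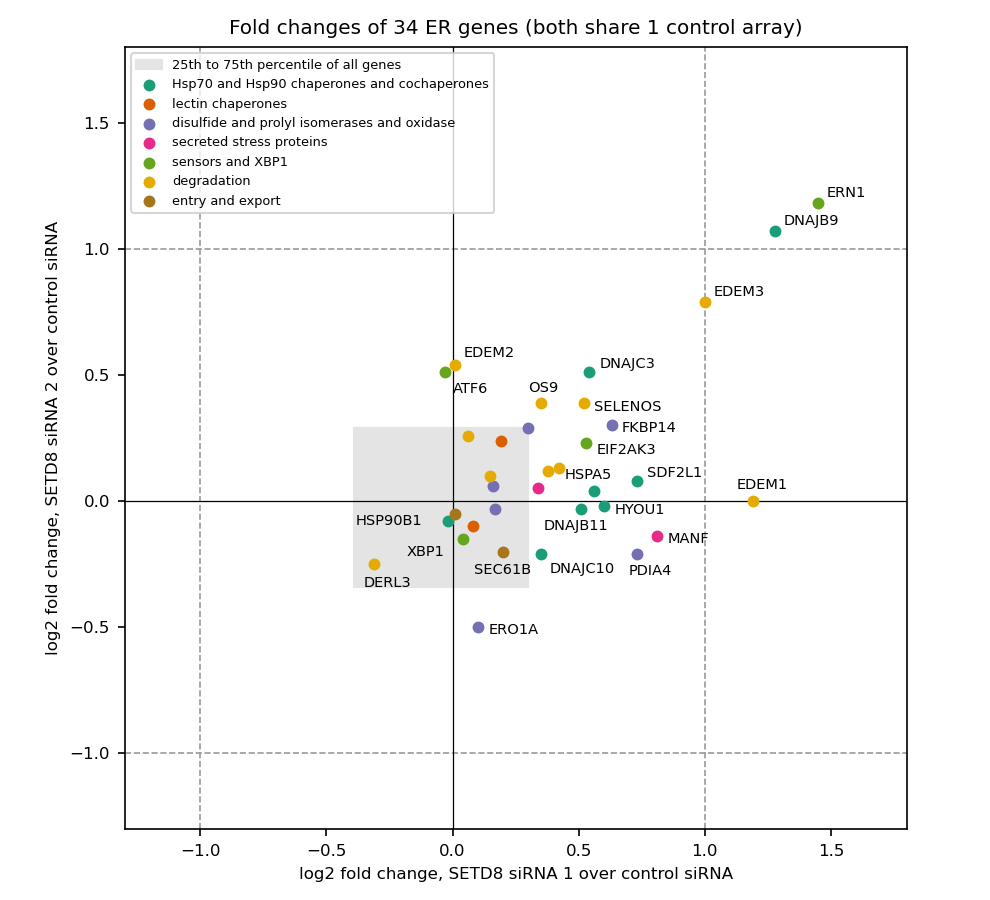
Log2 fold change over the control siRNA with siRNA 1 (horizontal) and siRNA 2 (vertical) for the 34 genes, coloured by role, with the grey box spanning the 25th to 75th percentile of all genes and dashed lines at 2-fold. DNAJB9, ERN1 and EDEM3 lie to the upper right, while EDEM1 (1.19), MANF (0.81) and PDIA4 (0.73) lie to the right near 0 on the vertical axis; both axes share the control array.

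Degradation genes held both patterns as well. The EDEM proteins are mannosidases or mannosidase-like lectins that mark misfolded glycoproteins for removal. EDEM1, at chr3:5187707-5219958, had 3254.9 with siRNA 1 and 1420.1 with siRNA 2, against 1424.5 with the control siRNA. The siRNA 1 array alone stood apart, 2.28-fold above the control, and the difference of -1.20 between the siRNAs was just under the array spread of 1.25. EDEM3, at chr1:184690237-184754858, had 6734.9 with siRNA 1 and 5859.0 with siRNA 2, against 3377.1 in the control, 1.99-fold and 1.73-fold, and was thus high with both. Its 3 probe sets gave 0.88 ± 0.11 with siRNA 1 and 0.66 ± 0.13 with siRNA 2 (SD over probe sets). EDEM2 had 528.2 with siRNA 1 and 759.8 with siRNA 2, against 523.5 with the control siRNA. None of the EDEM differences from the control or between the siRNAs passed the array spread.

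The membrane complex that pulls proteins out of the ER varied less. HERPUD1, a short-lived scaffold of the complex, had 6524.8 with siRNA 1 and 5443.4 with siRNA 2, against 5019.6 with the control siRNA (0.38 and 0.12). SEL1L, the adaptor of the SYVN1 ligase, had 5278.0 with siRNA 1 and 4319.6 with siRNA 2, against 3937.3 in the control, and its 4 probe sets gave 0.42 ± 0.31 and 0.22 ± 0.40 (SD over probe sets). SELENOS, a selenoprotein that recruits the VCP segregase, had 11655.4 with siRNA 1 and 10631.4 with siRNA 2, against 8130.4 in the control, or 1.43-fold and 1.31-fold. OS9, a lectin that reads trimmed glycans, had 1193.1 with siRNA 1 and 1231.5 with siRNA 2, against 939.3 in the control. SELENOS and OS9 were higher on both SETD8 siRNA arrays by 0.35 to 0.52 on the log2 scale, but a second OS9 probe set gave -0.05 with siRNA 1.

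The derlins, proposed membrane channels of this complex, were close to the control on their brightest probe sets. DERL1 had log2 fold changes of 0.06 and 0.26 and DERL2 of 0.15 and 0.10, with siRNA 1 and siRNA 2 in that order. All probe sets of these genes above the limit ran from -0.31 to 0.33 with siRNA 1 and from 0.02 to 0.58 with siRNA 2. DERL3, whose signals of 95.6 with siRNA 1 and 99.7 with siRNA 2 against 118.3 with the control siRNA put it in the lowest quartile, had -0.31 and -0.25, and its second probe set above the limit went the other way, with 0.39 and 0.49. SEC61B, a subunit of the entry channel, had 19311.4 with siRNA 1 and 14654.0 with siRNA 2, against 16849.9 in the control, and SEC24D, a cargo adaptor of the vesicles that leave the ER, had 5170.8 with siRNA 1 and 4950.5 with siRNA 2, against 5138.6 in the control. Neither entry nor export gene was thus more than 1.15-fold above the control on its brightest probe set.

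Over separate probe sets, 79 of the 86 for these genes were above the signal limit. Of the 79, 65 were higher than control with siRNA 1 (82.3%, against 46.3% of all probe sets of 1 gene) and 50 with siRNA 2 (63.3%, against 48.0%). At least 2-fold higher with both were 3 (3.80%, against 1.37%), and none was 2-fold lower with both (2.93%). Of the 22 genes with more than 1 such probe set, 14 were higher on every one with siRNA 1 (63.6%, against 27.7% of 6151 such genes in all) and 10 with siRNA 2 (45.5%, against 28.5%). Conversely, 2 were lower on every one with siRNA 1 (HSP90B1 and ATF6; 9.09%, against 35.7%) and 5 with siRNA 2 (22.7%, against 32.0%).

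**Figure D4:**
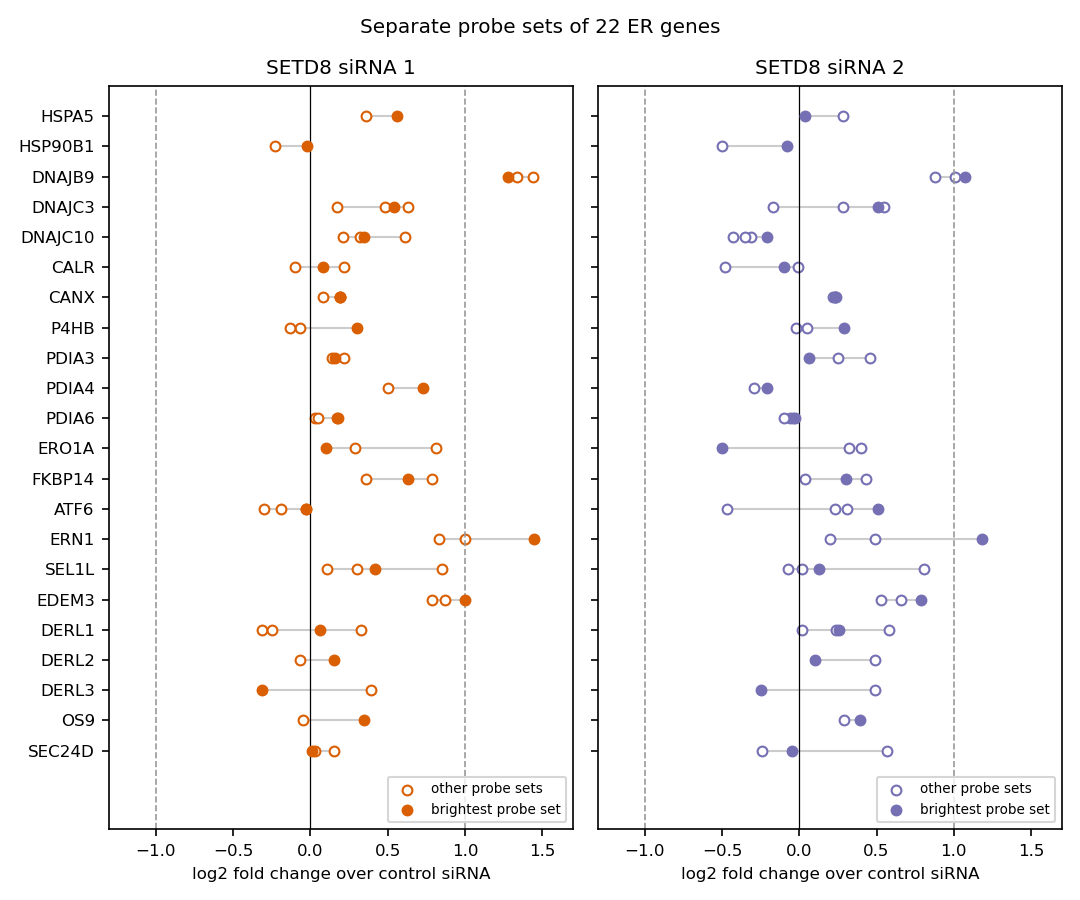
Log2 fold change over the control siRNA for each probe set above the signal limit (horizontal axis; filled points are the brightest probe set, open points the others) of the 22 genes with several, for siRNA 1 on the left and siRNA 2 on the right. The probe sets of DNAJB9 and EDEM3 lie together and above 0.50 in both panels, those of DNAJC10 and PDIA4 change side between the panels, and those of ERN1, ERO1A and SEL1L are spread widely with siRNA 2.

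Beyond these 34 genes, 109 of 115 other genes of the ER pathway in 7 lists could be compared. None was at least 2-fold higher with both SETD8 siRNAs (1.5% of all genes) and none was lower with both (3.23%). Their median log2 fold changes were 0.18 with siRNA 1 and 0.14 with siRNA 2. Above 0 were 80 and 75 of the 109, where 48.4% and 48.9% of all genes were, and 56.8% and 57.3% of the highest signal quartile. Past 2-fold with siRNA 1 were 5 upward and 2 downward (5.48% and 7.75% of all genes), and with siRNA 2 there were 2 upward and 1 downward (4.46% and 6.65%). The list medians ran from 0.10 to 0.19 with siRNA 1 and from 0.05 to 0.20 with siRNA 2, so none reached the 0.35 of the folding and degradation genes with siRNA 1.

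The gene with the largest shared difference was named in each list. SRPRB, a subunit of the receptor for the signal recognition particle, had 0.30 with siRNA 1 and 0.37 with siRNA 2, and SEC23B, a coat protein of export vesicles, had 0.23 and 0.22. FAM8A1, a component of the SYVN1 complex, had a signal of 3740.5 with siRNA 1 and 4339.6 with siRNA 2, against 2279.4 with the control siRNA (0.71 and 0.93). P4HA2, a catalytic subunit of the collagen prolyl hydroxylase, had 14862.4 with siRNA 1 and 10961.5 with siRNA 2, against 7544.2 in the control (0.98 and 0.54), and the value for siRNA 2 became -0.01 with all its probe sets averaged, dim ones included. PRKCSH, the noncatalytic subunit of glucosidase II, had 0.61 and 0.80, but turned to -0.19 and -0.15 without shared probe sets. ERO1B, a relative of ERO1A, had 1.51 and 0.39, and was dim, at 191.7 in the control with an array spread of 1.72. Only 1 of its 2 probe sets was higher with siRNA 2, where their mean was 0.19. SERPINH1, the collagen chaperone, had 0.14 and -0.55, and KDELR3, a receptor that returns chaperones to the ER, 0.12 and 0.32. KDELR2 was not analysed here.

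Among outputs of the PERK branch, DDIT3 and TRIB3 differed between the siRNAs by more than the array spread. ATF3 and ASNS of the same list of stress outputs, given below, did so too. Some genes pass it by its definition, so this is not a contrast with the 34 genes, none of which did. DDIT3, which encodes the stress factor CHOP, had 529.3 with siRNA 2 and 1700.8 with siRNA 1, around 877.6 with the control siRNA. TRIB3, a pseudokinase induced by CHOP, had 745.2 with siRNA 2 and 2512.5 with siRNA 1, around 1482.5 with the control siRNA. The differences between the siRNAs, -1.68 and -1.75, passed the array spread of 1.25. ATF4, the factor upstream of both, had log2 fold changes of -0.19 and -0.49, and PPP1R15A, which lets translation resume, 0.27 and 0.30. BCL2L11, a cell death activator, was the gene of this list with the largest shared difference (-0.72 and -0.84), although 2 of its 5 probe sets were higher than control.

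Several pathway genes passed 2-fold with 1 siRNA and are named after their values were seen. TMX4, a membrane-bound thioredoxin-like protein, had 14201.0 with siRNA 1 and 3519.6 with siRNA 2, against 3629.6 with the control siRNA. P3H2, which hydroxylates collagen prolines, had 1708.3 with siRNA 1 and 10245.9 with siRNA 2, against 3647.4 in the control, and so lay on either side of it. ATF3 had 2.13 and 0.23, CHAC1 1.03 and 0.60, MOGS 1.17 and 0.14, ERLIN1 -1.01 and -0.37, TXNIP 0.27 and 1.37, and ASNS -0.60 and -2.05. The changes of TMX4, P3H2, ATF3 and ASNS between the siRNAs passed the array spread for their signal, which some genes do by its definition. With all probe sets averaged, dim ones included, ASNS had 0.14 and -1.02 and P3H2 -0.55 and 0.75, and BCL2L11 above had -0.10 and -0.64.

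**Figure D5:**
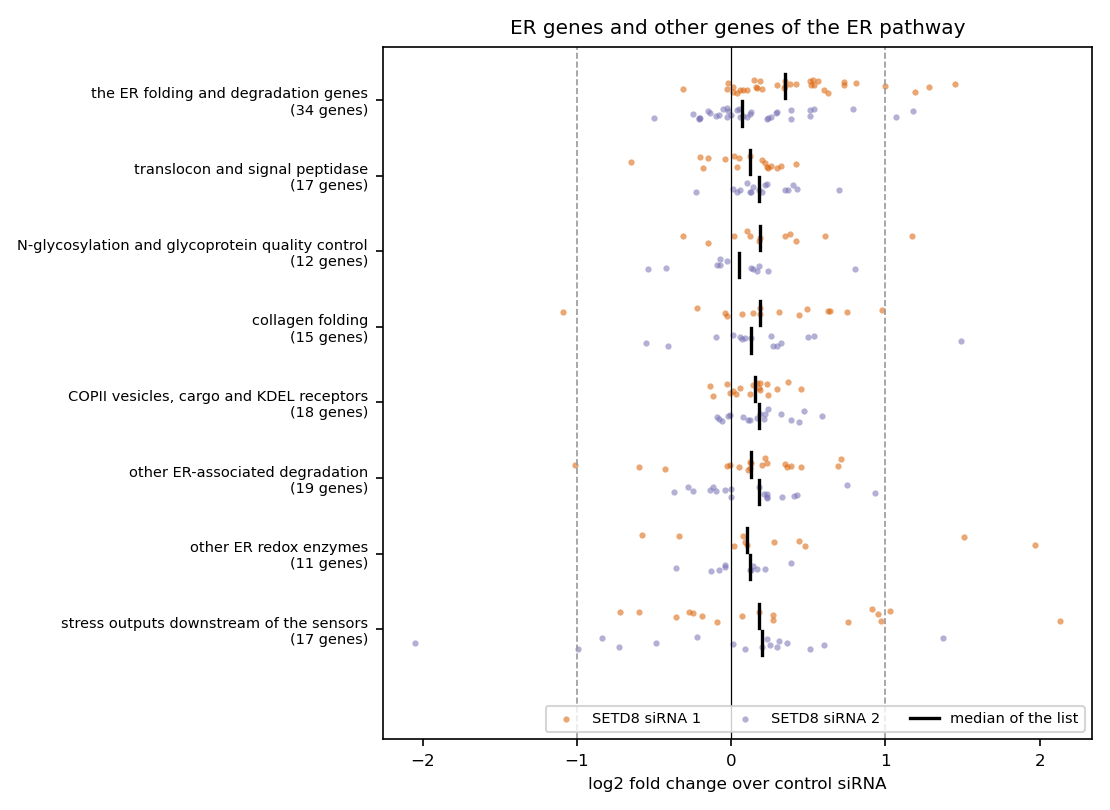
Log2 fold change over the control siRNA (horizontal axis) for the 34 folding and degradation genes and for 7 lists of other ER pathway genes, with 1 point per gene, siRNA 1 above siRNA 2 in each row and a bar at the median; dashed lines mark 2-fold. The median of the folding and degradation genes is 0.35 with siRNA 1 and 0.07 with siRNA 2, while the other lists have medians between 0.05 and 0.20 with either siRNA.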

How the data were processed

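Labelled cRNA from 3 IMR-90 samples was hybridised to 1-colour arrays, 1 per siRNA. The deposited values are linear intensity per probe set. The submitters' processing notes name MAS5, with no version. The mean without the extreme 2% at either end was 497 on each array, so no scaling was added. Probe sets were named through GEO's platform annotation and RefSeq gene numbers, and those of several genes were left out. Signals under a floor of 11.7 (25th percentile) were set to it before log2. Each gene took its brightest probe set and was kept if its mean signal reached 42.0, the median over probe sets. With 1 array per group no test was run, and the number of arrays limits the precision. Genes were counted by fold size beside the same count over all genes. The 95% limits of the difference between the SETD8 siRNA arrays were taken within quartiles of mean signal. The counting was tested on simulated data with planted changes larger than any member had, so changes near the thresholds were not covered. Members, lists, thresholds and motifs were chosen with earlier results of these data known. Named genes were all members, KMT5A, the gene with the largest shared change of each pathway list (or up to 4 past 2-fold with both), 7 fixed genes, and others marked as named later. Tried in turn were scaling to the median, quantile normalization, 16 added before log2, no limit on signal or one at the 75th percentile, probe sets averaged, shared ones dropped (suffixes _s_at, _x_at, _a_at), and 1.5-fold or 3-fold thresholds. Python 3.11.15, numpy 2.4.6, pandas 2.3.3 and matplotlib 3.10.9 were used.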

Additional observations from a re-analysis of the deposited data

How the results depend on the processing

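The median log2 fold changes of the ER folding and degradation genes moved by less than 0.1 under all 7 alternatives to scaling, floor, filter and probe set choice. The count at least 2-fold higher with both SETD8 siRNAs, 2 genes, became 0 when probe sets were averaged and 0 at 3-fold, and the count higher with SETD8 siRNA 2 likewise became 0 and 0. Averaged, DNAJB9 had 0.99 and ERN1 0.62 with that siRNA. The count higher with SETD8 siRNA 1, 3 genes, was 9 at 1.5-fold and 0 at 3-fold, and the count lower with SETD8 siRNA 2 than with SETD8 siRNA 1, 1 gene, was 6 and 0. In counting signs, log2 values that round to 0 were taken as keeping theirs. EDEM1 with SETD8 siRNA 2 (0.997-fold) was counted so, although it became 0.04 with median scaling and 0.02 with quantile normalization. Of 68 single fold changes of these genes, 53 kept their sign in this way under all alternatives that gave a value. The 15 that did not were at most 0.50 in size. Among them were XBP1 with SETD8 siRNA 1, 0.04 against -0.92 with a dim probe set averaged in, and HERPUD1 with SETD8 siRNA 1, 0.38 against -0.24, also with a dim probe set averaged in. Of 98 medians of the other lists under these settings, 6 moved by 0.1 or more. Without shared probe sets 26 of the 34 genes kept a value. HSP90B1, HYOU1, SDF2L1, HERPUD1, SEL1L, EDEM3, SELENOS and OS9 did not. No paired analysis was possible because each group holds 1 array.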
